A study of Mus musculus with 2 samples.

Results

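The S5-like cells are fetal liver erythroid cells with high Ter119 and the least CD71 on their surface. They were taken from a single CITE-seq experiment, which reads the messenger RNA and a panel of antibody tags of the same single cells. Fetal livers of C57BL/6 mice at e13.5 of gestation were pooled and Ter119+ cells were depleted magnetically. Before loading, Ter119+ cells were mixed back into the Ter119- fraction in equal number. There was 1 cDNA library and 1 antibody library, with no tag for the animal a cell came from, and all 7863 barcodes of the cDNA matrix were also in the antibody table. The cells were chosen by measured values of the same experiment. A cell was S5-like when it had 300 to 5000 genes and at most 9% mitochondrial unique molecular identifiers (UMIs, counts of single RNA molecules), at most 95 summed counts of 5 antibodies against other lineages, at least 89 Ter119 counts, fewer than 200 CD71 counts and no more Hbb-y than adult beta-globin. This gave 310 of 7863 cells (3.94%). Of the 7863 cells, 7355 passed the limits on genes and mitochondrial UMIs, 6508 of these were low for the lineage antibodies, 1781 of these were high for Ter119, and 332 of these had under 200 CD71 counts. The other 22 cells of those 332 had more Hbb-y than adult beta-globin and were left out.

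Red cell precursors of the fetal liver divide, fill with hemoglobin, condense the nucleus and then expel it to become reticulocytes. Ter119 marks the erythroid cell from the erythroblast stages onward, whereas CD71, the transferrin receptor that brings in iron, is abundant on dividing precursors and is lost as they mature. CD44 is also lost from the surface during the last divisions, and a reticulocyte keeps only the RNA that it had when the nucleus left.

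Because the gate uses Ter119 and CD71, the DNA tags of these antibodies are the sequences on which the choice of cells rests. CD44 and cKit, the receptor of early progenitors, were read by tags that the gate did not use. All 4 tags are shown in capitals as they were read.

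Ter119: GAGGCGATTGAT
CD71: CGAAGAAGGAGT
CD44: GTCTAGACTTCG
cKit: AAGCGCTTGGCA

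The S5-like cells had 163 Ter119 counts (median, range 89 to 327) and 99 CD71 counts (quartiles 59 and 147). These 2 ranges follow from the gate and are given as a description. The CD71 limit fell within a continuous spread and not in a gap, as the plot of both antibodies shows. The 20 cells just inside it had 183 or more CD71 counts, a median of 70.0% globin UMIs and a median of 2 Malat1 UMIs. The 20 cells just outside it had 201 to 219 CD71 counts, 63.2% globin UMIs and 16.5 Malat1 UMIs. At the Ter119 limit, the 20 cells just inside (89 to 101 counts) had 65.6% globin UMIs and the 20 cells just outside (59 to 88 counts) had 72.3%. For comparison, 4 other populations were cut from the same lineage-low cells. S3 (875 cells) had the same lower limit of Ter119, with medians of 124 Ter119 and 1400 CD71 counts, and S4-like (540 cells) lay between, with medians of 153 and 421. S2 (1317 cells) had 25 to 88 Ter119 counts and S1 (617 cells) had fewer, with medians of 1611 and 1150 CD71 counts.

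**Figure D1:**
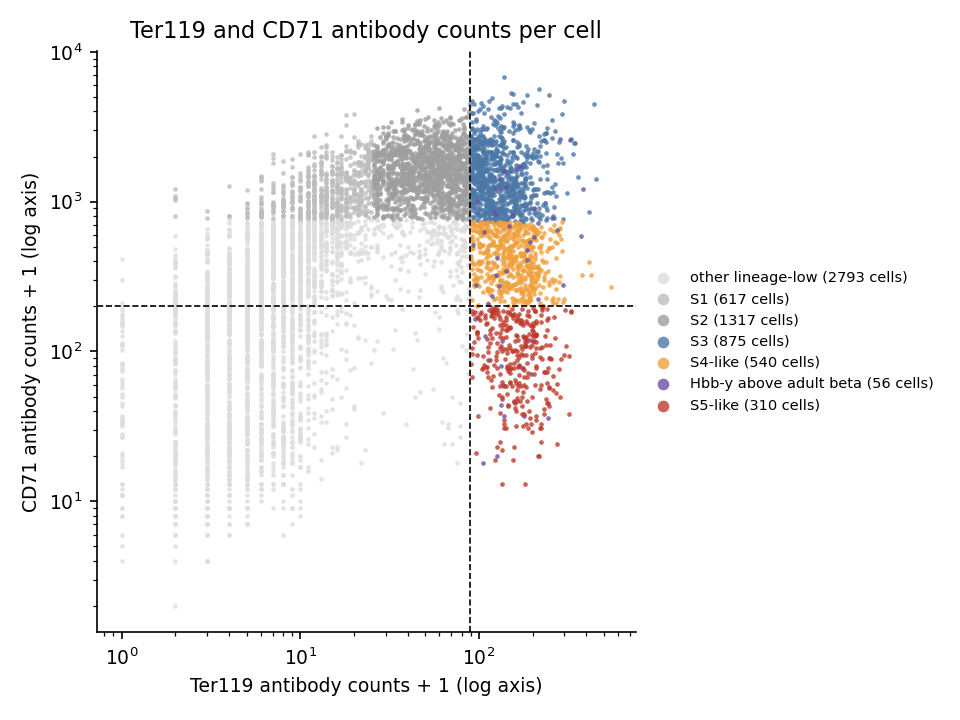
Ter119 against CD71 antibody counts of the 6508 lineage-low cells, 1 point per cell, with 1 added to each count and both axes on a log scale. The dashed lines mark 89 Ter119 and 200 CD71 counts; the 310 S5-like cells fill the lower right corner and run without a gap into the 540 S4-like cells above them.

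Most UMIs of the median S5-like cell were globin. It had 3799 UMIs (range over cells 2510 to 15606) from 563.5 genes, and the median of UMIs that were not globin was 1066.5 (range 439 to 14524). Globin genes took 72.9% of a cell's UMIs (median, quartiles 65.9% and 77.9%), against 62.5% in S4-like and 44.3% in S3 cells. The middle 50% of the S5-like cells lay above the middle 50% of the S3 cells, whose quartiles were 29.0% and 54.4%. Hbb-bs, an adult beta-globin, had 985 UMIs per cell in S3 and 1589 in S5-like cells. The other adult globins differed less, with 484 and 598 UMIs per cell for Hbb-bt, 277 and 343 for Hba-a1 and 217 and 304 for Hba-a2. Reads can be split between the near-identical alpha-globin pair and between the beta-globin pair, so the levels within each pair are uncertain. The ratio of adult beta-globin to alpha-globin UMIs per cell had medians of 2.94 in S3, 3.12 in S4-like and 3.37 in S5-like cells. Mitochondrial genes took 0.858% of the UMIs of the median S5-like cell and 2.38% of those of the median S3 cell. CD44, which the gate did not use, had medians of 80 counts in S3, 46.5 in S4-like and 34.5 in S5-like cells, and the cKit median of S5-like cells was 13 counts.

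**Figure D2:**
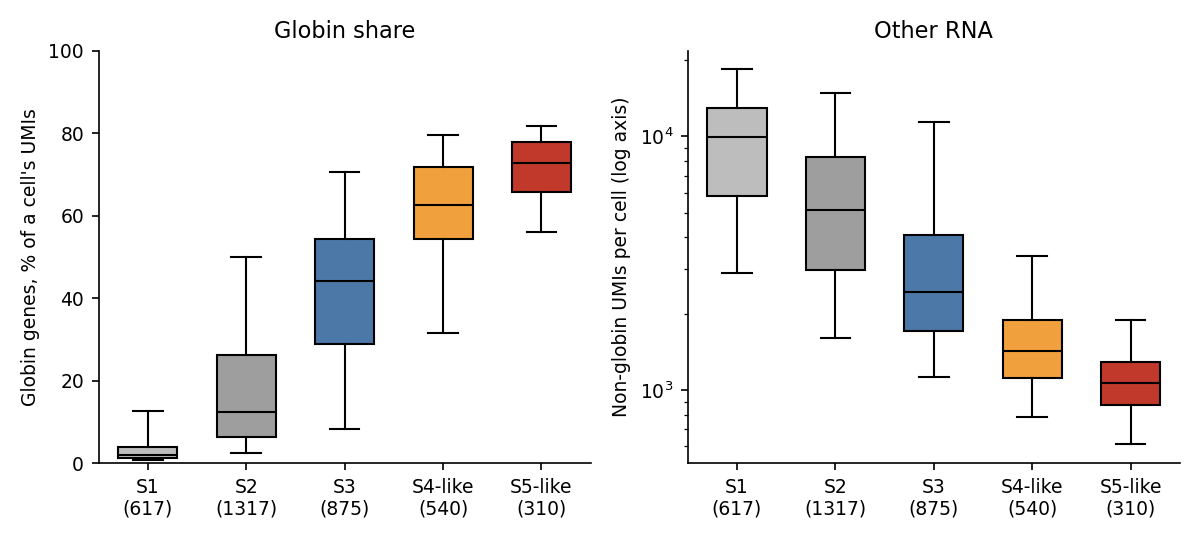
Left, share of globin genes in a cell's UMIs (percent); right, non-globin UMIs per cell (log axis), for the 5 populations with their numbers of cells. Boxes are quartiles with the median, whiskers the 5th and 95th percentiles; S5-like cells have the highest median globin share, 72.9%, and the lowest median of other UMIs, 1066.5.

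Because globin fills most of the library of these cells, RNA levels below are UMIs summed over the cells of a population per 1000000 non-globin UMIs. Brackets hold exact 95% Poisson intervals, which cover counting error only. With 1 library there is no replicate check, cells of 1 library are not replicates, and no test was made. A gene was called higher or lower when its log2 ratio, with 10 added to both levels, was at least 1 in size. A relative level cannot tell a gain of 1 RNA from a loss of the others.

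A set of 4 cells in the gate stood apart. They had under 40% globin UMIs (2.76%, 6.93%, 14.9% and 39.4%), and the first 3 of them had 837, 658 and 523 cKit counts, far above the median of 13. The last of them was called a doublet. Together they held 8.56% of the non-globin UMIs of the S5-like cells. Calls are therefore also given without them.

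The 3 marker genes of the population were all present. They were named together with the population, so their levels are a description and not a check of what the cells are. Bpgm, which encodes bisphosphoglycerate mutase, the enzyme that makes the 2,3-bisphosphoglycerate that tunes oxygen release, had a level of 4701 [4484 to 4925] in S5-like, 2427 in S4-like and 552 in S3 cells. Mkrn1, a ubiquitin ligase, stood at 7757 [7478 to 8044], 4303 and 1320. Alas2, the erythroid enzyme of the first step of heme synthesis, stood at 7896 [7614 to 8185], 5325 and 2313. On this non-globin scale all 3 levels went up at each step from S1, where they were 73.2 for Bpgm, 174 for Mkrn1 and 94.4 for Alas2. Per cell, 2 steps did not go up. Alas2 had means of 8.46 UMIs in S3, 9.75 in S4-like and 9.57 in S5-like cells. Bpgm had means of 0.729 in S1 and 0.699 in S2 cells. In the single S5-like cell, counts were low, with a median of 5 Bpgm UMIs (range 0 to 20), 9 Mkrn1 UMIs (0 to 29) and 9 Alas2 UMIs (0 to 28). After each cell was thinned to 400 non-globin UMIs, Bpgm was seen in 81.6% of S5-like cells (exact 95% interval 76.8% to 85.8%), 62.8% of S4-like and 23.1% of S3 cells. Without thinning the S5-like share was 95.5%. In 553 lineage-high, Ter119-low cells, which should lack the gene, the thinned share was 1.45% and the unthinned share 22.2%, and the median depths of these cells and of S5-like cells were 7928 and 1066.5 non-globin UMIs. The thinned shares of S5-like cells for Mkrn1 and Alas2 were 90.6% and 96.5%, against 3.62% and 0.723% in the lineage-high cells.

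The promoters of the 3 markers are shown because these genes led or joined the rise. Each is the 250 bases before an annotated start from RefSeq (GRCm38.p6), in the gene's own direction, with 2 starts for Mkrn1. Capitals mark matches, on either strand, to 3 motifs. AGATAA is a motif of GATA factors. CCNCNCCC is the motif of KLF1 and its relatives and overlaps GC-box letters. CCAAT is the box of that name.

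Bpgm, chr6:34476106-34476355, plus strand: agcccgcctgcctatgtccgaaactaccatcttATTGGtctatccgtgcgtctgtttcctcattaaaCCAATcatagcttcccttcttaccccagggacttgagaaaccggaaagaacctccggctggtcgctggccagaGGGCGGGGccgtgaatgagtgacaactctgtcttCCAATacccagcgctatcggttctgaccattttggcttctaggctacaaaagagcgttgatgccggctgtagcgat
Mkrn1 promoter 1, chr6:39419777-39420026, minus strand: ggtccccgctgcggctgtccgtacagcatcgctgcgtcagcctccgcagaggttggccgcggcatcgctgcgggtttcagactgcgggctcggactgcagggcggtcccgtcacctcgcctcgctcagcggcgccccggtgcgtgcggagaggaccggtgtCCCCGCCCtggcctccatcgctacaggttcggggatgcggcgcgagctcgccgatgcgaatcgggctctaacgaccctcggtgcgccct
Mkrn1 promoter 2, chr6:39420370-39420619, minus strand: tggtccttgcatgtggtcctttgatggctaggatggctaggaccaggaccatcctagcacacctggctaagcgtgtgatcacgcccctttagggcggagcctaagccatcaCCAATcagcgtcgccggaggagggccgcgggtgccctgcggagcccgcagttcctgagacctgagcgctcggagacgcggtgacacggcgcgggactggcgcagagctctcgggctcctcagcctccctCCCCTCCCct
Alas2, chrX:150547167-150547416, plus strand: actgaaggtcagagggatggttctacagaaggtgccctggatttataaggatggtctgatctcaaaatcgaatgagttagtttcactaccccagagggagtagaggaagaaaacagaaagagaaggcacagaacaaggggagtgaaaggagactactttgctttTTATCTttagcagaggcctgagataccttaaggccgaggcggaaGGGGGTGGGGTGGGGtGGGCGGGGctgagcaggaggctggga

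Alas2 had 1 AGATAA match 86 bases before its start and CCNCNCCC matches 42, 40, 35 and 26 bases before it, of which the last did not overlap the others. Bpgm had 3 CCAAT matches and 1 CCNCNCCC match 110 bases before its start, and neither Bpgm nor Mkrn1 had AGATAA in these windows. Such matches are common. Among all 32851 promoters, 9.99% held AGATAA, 45.9% CCNCNCCC and 33.8% CCAAT. Of the 167 genes called higher in S5-like than in S3 cells (below), 128 were matched to 179 promoters, and 8.38%, 68.2% and 39.1% of these held the 3 motifs. The shares over all genes compared were 5.81%, 63.0% and 36.8%. A match describes letters in a window and not a bound site.

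The first comparison, with S3 cells, asked what differs between Ter119-high cells with the most and with the least CD71. Of 5351 genes with at least 50 UMIs in both populations together, 167 (3.12%) were higher and 473 (8.84%) lower in S5-like cells, and the median log2 ratio of all genes was -0.26. The split depends on the scale. Per 1000000 of all UMIs, globin included, 6 genes were higher and 2239 lower with a median of -0.90, and per cell 1 gene (Bpgm) was higher and 3887 lower with a median of -1.31. On the non-globin scale, 178 were higher and 604 lower without the 4 cells under 40% globin, with 147 and 433 calls shared. With levels taken as a mean over cells, 133 were higher and 517 lower, and only 86 and 362 calls were shared.

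By the log2 ratio with 10 added to both levels, Bpgm stood first of the 5351 genes at 3.07, followed by Mkrn1 at 2.55 and Fam220a at 2.48. The plain ratios of their levels were 8.52 [7.97 to 9.11], 5.87 [5.60 to 6.16] and 5.68 [5.23 to 6.17]. With levels taken as a mean over cells, their log2 ratios were lower, at 2.32, 1.96 and 1.88. Per cell, Bpgm had 5.70 UMIs in S5-like and 2.02 in S3 cells, Mkrn1 9.41 and 4.83, and Fam220a 3.11 and 1.65. Xpo7, a nuclear exporter that erythroblasts use to remove histones from the nucleus, was at 1447 against 309, a ratio of 4.68 [4.21 to 5.20]. Tcp11l2 (1482 against 334), Tmcc2, a transmembrane coiled-coil protein (5783 against 1386), and Pepd, a dipeptidase for proline (370 against 81.6), also rose. As a mean over cells, the log2 ratios of Xpo7 and Tmcc2 were 1.23 and 1.07, against 2.19 and 2.05 from summed UMIs. The log2 ratios of Xpo7 (-0.37), Tcp11l2 (-0.50), Tmcc2 (-0.21) and Pepd (-0.087) turned when only cells with fewer than 5 UMIs of the nuclear RNA Malat1, described further on, were compared. Lgmn, a lysosomal protease, and Ncf4, a subunit of the phagocyte oxidase, rose at lower levels, 157 against 28.8 and 269 against 54.7. The 3 others of the 12 highest log2 ratios were the granulocyte genes Ctsg (plain ratio 9.99 [5.52 to 18.2]), Prtn3 (7.30) and Mpo (5.43). The cell with the most UMIs of the gene, taken for each gene apart, held 15 of the 27 Ctsg UMIs, 20 of the 36 Prtn3 UMIs and 14 of the 58 Mpo UMIs.

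The 12 genes with the lowest ratios included parts of the dividing nucleus. Hist1h1b, a linker histone, fell from 123 in S3 to 10.6 in S5-like cells, and Ncapd3 and Ncapd2, subunits of condensin, fell from 79.4 to 7.98 and from 49.1 to 5.32. Mybl2, a transcription factor of the cell cycle, fell from 76.6 to 7.98, and Prc1, which bundles the spindle midzone, from 190 to 42.6. Dek, an abundant chromatin protein, fell from 1558 to 359, and 2810417H13Rik, the gene of the PCNA-associated factor, from 652 to 165. Cdc42ep3 (264 to 53.2), Adra2b, Hist1h2ap, Dhrs13 and Knop1 made up the rest. Among cells below 5 Malat1 UMIs, Cdc42ep3, Hist1h2ap and Prc1 had 11, 1 and 12 UMIs in both populations together, too few to compare. Hist1h1b, Ncapd3, Mybl2, Adra2b, Ncapd2, Hist1h2ap, Dhrs13 and Knop1 rested on 1 to 4 UMIs in S5-like cells, so their ratios are loose (Hist1h1b 0.0862 [0.0234 to 0.222]).

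**Figure D3:**
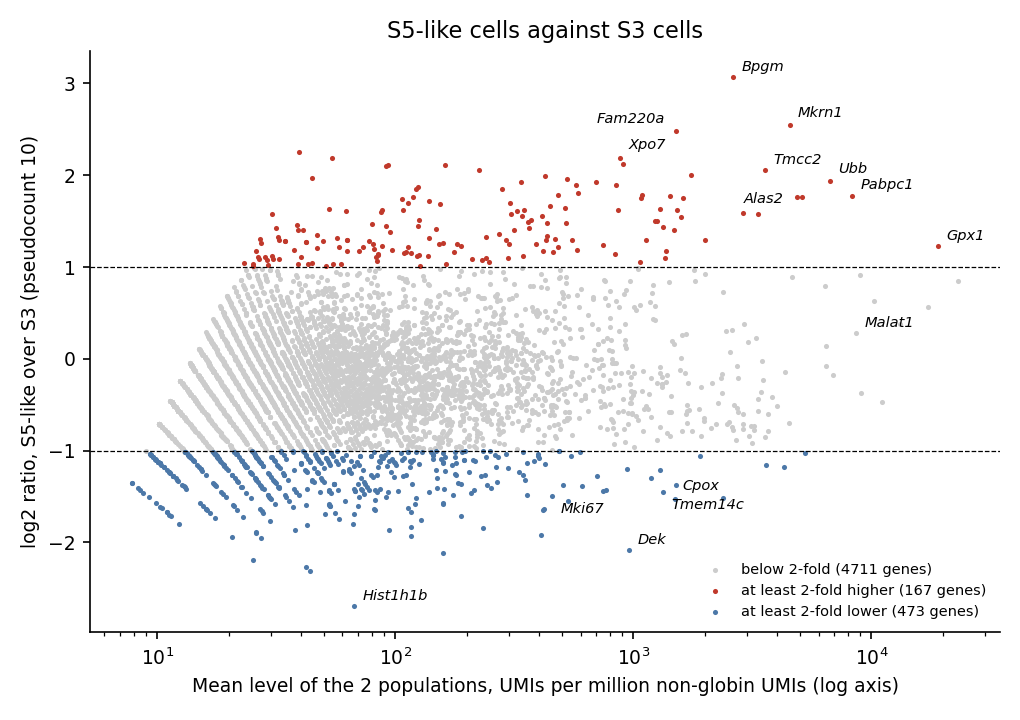
Log2 ratio of S5-like over S3 cells (pseudocount 10) against the mean level of the 2 populations per 1000000 non-globin UMIs (log axis), 1 point per gene, for 5351 genes. Red points are the 167 genes higher and blue points the 473 genes lower by at least 2-fold (dashed lines); Bpgm is the highest point, at 3.07.

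The heme pathway was not changed as a block. Of 8 heme synthesis genes compared, Alas2 rose (ratio 3.41 [3.27 to 3.56]) and Uros and Cpox fell, and the median log2 ratio of the 8 was -0.29, close to that of all genes, of which 3.12% were higher and 8.84% lower. Per cell, the log2 ratio of Alas2 was 0.18. Uros had 17 UMIs in both populations together among cells below 5 Malat1 UMIs, too few to compare. Cpox, which acts late in the pathway, stood at 2216 in S3, 1582 in S4-like and 763.5 in S5-like cells. Fech, which inserts the iron, stood at 3260, 5284 and 6033, and Alad, which acts just after Alas2, at 1632, 1402 and 881, both below the 2-fold call. Of 6 genes of heme transport in mitochondria none rose, and Slc25a38, the glycine carrier that feeds Alas2 (183 to 50.5), and Tmem14c, a porphyrinogen carrier (1952 to 708), fell. Among cells below 5 Malat1 UMIs without cells under 40% globin, the log2 ratio of Tmem14c was 0.16, from 162 and 66 UMIs. The mitochondrial iron importer Slc25a37 was at 2488 in S3 and 2213 in S5-like cells.

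Of 9 genes of iron uptake and storage, none rose and 2 fell, against 3.12% and 8.84% of all genes, namely Steap3, the endosomal ferrireductase (2 UMIs in S5-like cells), and Tfrc. Tfrc is the gene of CD71, and its RNA went from 471 in S3 and 391.5 in S4-like to 194 [152 to 244] in S5-like cells. Since the gate chose cells by the CD71 protein, this is a description. The ferritin genes Ftl1 and Fth1 were among the 3 most abundant non-globin RNAs of S5-like cells, at 29877 and 20713, with Gpx1 between them at 26597. Their pseudogenes share sequence with them, so these levels are uncertain.

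Of 12 membrane proteins none rose and Gypc, glycophorin C, fell (387 to 146), with a median log2 ratio of 0.23, a share near the 8.84% of all genes lower. Slc4a1, the band 3 anion exchanger, went from 1029 in S3 to 1397 in S5-like cells, a log2 ratio of 0.44 and below the call. Of 11 genes of the membrane skeleton 2 rose, against 3.12% of all genes. Epb41, protein 4.1 (245 to 787, ratio 3.21 [2.80 to 3.67]), and Mpp1, p55 (270 to 771), rose, whereas Sptb, beta-spectrin, fell (152 to 66.5). The log2 ratio of Mpp1 turned to -0.073 per cell and to -0.16 among cells below 5 Malat1 UMIs. Of 7 adhesion genes, Icam4, which binds macrophage integrins, fell (531 to 184). Of 15 erythroid transcription factors, Ldb1 fell and none rose. Gata1 was at 302 in S3 and 162 in S5-like cells and Klf1 at 1093 and 572, and the median of the 15 was -0.58.

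The ubiquitin genes of late erythroblasts held the largest share of higher genes among the lists of the erythroid cell's own functions with 10 or more genes compared. Of 17 compared, 8 rose and none fell, with a median log2 ratio of 0.92, against 3.12% of all genes higher and a median of -0.26. The list is named for late erythroblasts, was chosen with earlier results of these data known and holds the marker Mkrn1. Its rank and share are therefore a description. Ubb, a polyubiquitin gene, rose from 2765 to 10596 (ratio 3.83 [3.69 to 3.98]), and the E2 enzyme gene Ube2b from 694 to 2804. Ube2h, Ube2l6, Ube2o, a hybrid E2 and E3 enzyme that clears proteins from reticulocytes, Fbxo30, Mkrn1 and Rnf10 were the others. Ube2l6 (-0.29), Fbxo30 (-0.23) and Rnf10 (-0.37) turned per cell. Ube2l6 and Rnf10 also turned among cells below 5 Malat1 UMIs (-0.073 and -0.062), where Fbxo30 had 38 UMIs in both populations together, too few to compare. Together the list took 1.06% of non-globin UMIs in S3, 2.28% in S4-like and 3.11% in S5-like cells. Its median turned to -0.19 per 1000000 of all UMIs and to -0.65 per cell, where the list had 38.9 UMIs in S3 and 37.8 in S5-like cells. Of 36 proteasome genes, none rose and 3 fell, near the 8.84% of all genes lower, with a median of -0.42 on the non-globin scale.

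Of 14 genes of mitophagy and autophagy, 5 rose and none fell, against 3.12% of all genes higher and 8.84% lower, with a median log2 ratio of 0.47 that turned to -0.28 per 1000000 of all UMIs and -0.60 per cell. Bnip3l, the mitophagy receptor by which reticulocytes clear mitochondria, rose from 1440 to 4355 (ratio 3.02 [2.86 to 3.20]), and Gabarapl2 and Map1lc3b, which coat autophagosomes, from 733.8 to 2487 and from 641 to 1833, though the log2 ratio of Map1lc3b was -0.076 per cell. Pink1 and the autophagy adaptor Sqstm1 rose at lower levels, to 178 and 202. Of 11 genes of the mitochondrial genome, mt-Nd1, mt-Nd2 and mt-Nd4 fell, and their list went from 4.63% of non-globin UMIs in S3 to 3.34% in S5-like cells. None of 76 nuclear genes of oxidative phosphorylation passed the 2-fold call, and their median was -0.11. Of 74 genes of the mitochondrial ribosome, Mrps35 rose and none fell, with a median of -0.30.

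Bcl2l1, the gene of the survival protein BCL-XL, rose from 284 to 1109 (ratio 3.90 [3.47 to 4.39]), alone among 6 genes of survival and death, against 3.12% of all genes higher, but its log2 ratio was -0.21 among cells below 5 Malat1 UMIs. Of 17 antioxidant genes, Cat, catalase (256 to 918), and Gpx1, glutathione peroxidase (11360 to 26597), rose and none fell. Gpx1 turned to -0.36 on the log2 scale per cell and to -0.025 among cells below 5 Malat1 UMIs. Of 14 glycolysis genes, Bpgm rose and none fell, and Slc2a1, a glucose transporter, was just under the call at 0.98. Pabpc1, the cytoplasmic poly(A)-binding protein, rose from 3745 to 12862, alone among 16 genes of translation control, and its log2 ratio was -0.034 among cells below 5 Malat1 UMIs. Of 81 ribosomal protein genes none rose and 6 fell, no more than the 8.84% of all genes lower, with a median of -0.58, and their list went from 15.8% of non-globin UMIs in S3 to 10.2% in S5-like cells. Of 15 genes of ribosome biogenesis and 11 chaperone genes, none passed the call, with medians of 0.14 and 0.07. Of 5 genes of the erythropoietin response, the receptor gene Epor fell (177 to 74.5) and none rose. Epor had 19 UMIs in both populations together among cells below 5 Malat1 UMIs, too few to compare.

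Many division genes were lower in S5-like cells. Of 19 DNA replication genes 7 fell and none rose, with a median log2 ratio of -0.95, and of 21 genes of G2 and mitosis 12 fell and none rose, with a median of -1.02, against 8.84% of all genes lower. Mki67 fell from 678 to 234, Top2a from 640 to 200 and the DNA ligase gene Lig1 from 187 to 45.2. Among cells below 5 Malat1 UMIs, Top2a had 28 UMIs in S5-like and 7 in S3 cells, under the minimum of 50, so its fall could not be followed there. Not all of them followed. Ube2c, the E2 enzyme of the anaphase-promoting complex, was at 2308 in S3, 3297 in S4-like and 2870 in S5-like cells, and Nusap1, a spindle protein, at 539, 869 and 982. Among 5 D cyclins and CDK inhibitors, Ccnd3 (800 to 266) and Cdkn2c (187 to 55.9) fell. Of 12 clustered histone genes 6 fell, and of 15 genes of chromatin condensation Xpo7 rose and Lbr, the lamin B receptor, fell, with a median of -0.70. Of 5 nuclear noncoding RNAs, Xist fell and none rose.

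**Figure D4:**
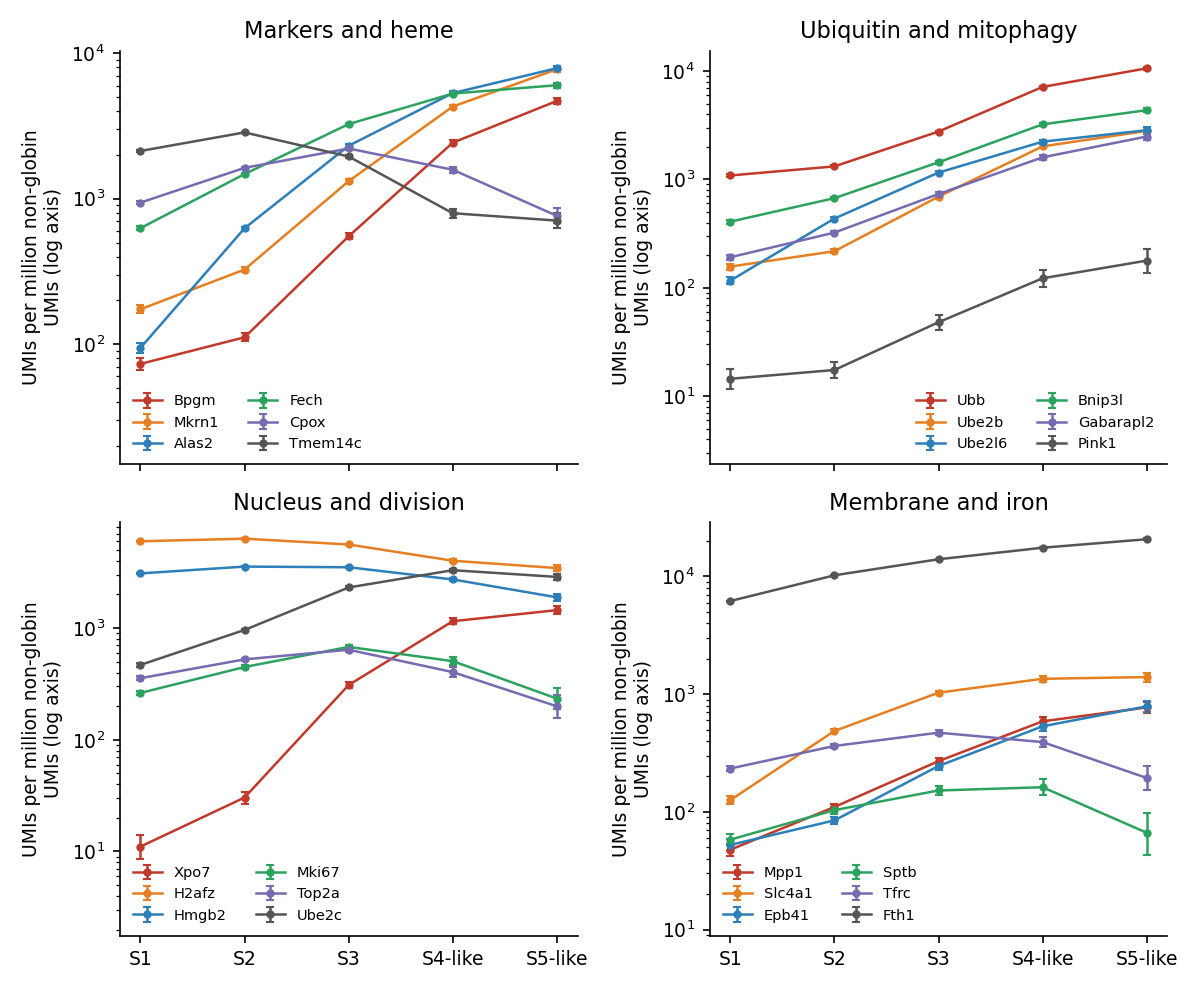
Levels per 1000000 non-globin UMIs (log axis) of 24 genes in the 5 populations; bars are exact 95% Poisson intervals, which cover counting error only. Bpgm, Mkrn1, Alas2, Ubb, Bnip3l, Xpo7 and Epb41 are highest in S5-like cells, whereas Cpox, Tmem14c, Mki67, Top2a, Sptb and Tfrc are lower there than in S3 cells.

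Genes of other cell types moved with the same comparison. Against 3.12% of all genes higher, all 8 granulocyte and monocyte genes compared rose (median log2 ratio 1.80), as did Pf4 and Ppbp of 3 megakaryocyte genes, Myb and Plac8 of 3 early progenitor genes and Apoa2 of 10 hepatocyte genes. Of the 8 granulocyte and monocyte genes, 2 were higher per 1000000 of all UMIs and 0 per cell, and without the cells under 40% globin 7 of 7 were higher (median 1.46). Among cells below 5 Malat1 UMIs 0 of 2 were higher, and among cells with 5 or more 5 of 7 (median 1.33). Per cell, the 11 granulocyte and monocyte genes together gave 0.817 UMIs in S3, 0.976 in S4-like and 1.2 in S5-like cells, against 88.2 in lineage-high cells, with S100a8 the most abundant and no member at 0. The 12 hepatocyte genes gave 6.82, 3.61 and 3.83 UMIs per cell, led by Afp in S5-like cells, and 115 in lineage-high cells. Without 3 S3 cells that had over 15 such UMIs each, the S3 value was 3.14, below those of S4-like and S5-like cells. The 9 megakaryocyte genes gave 0.384 UMIs per S5-like cell and the 10 macrophage genes 0.103, with 0.443 and 0.104 in S3 cells. Genes of mast cells (0.00645 UMIs per cell), lymphoid cells (0.00323), endothelium (0.0355) and mesenchyme (0.0129) were near 0. If all hepatocyte UMIs of the S5-like cells came from free RNA with the make-up of the whole library, free RNA would make 60.8% of their non-globin UMIs, against 38.0% in S4-like and 16.5% in S3 cells. The part of free RNA in the calls above was not tested. With that profile subtracted, 354 genes were higher and 3363 lower, and the log2 ratio of Bpgm was 3.97. Of the 8 granulocyte and monocyte genes, 4 were then higher and 0 lower (median 1.18).

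The second comparison was with S4-like cells, the neighbours across the CD71 limit of 200. Of 3019 genes compared, 5 (0.166%) were higher and 52 (1.72%) lower in S5-like cells, and the median log2 ratio was -0.09. Per 1000000 of all UMIs, 0 were higher and 125 lower. The 5 were Sepp1, a selenoprotein of plasma that hepatocytes make (117 against 45.5, ratio 2.57 [1.66 to 3.99]), H2afy, the histone macroH2A1, Arhgdib, the granulocyte gene Mpo and Tm9sf3. Each rested on 41 to 63 UMIs in S5-like cells, and 14 of the 62 H2afy UMIs lay in 1 cell. Without the 4 cells under 40% globin, 3 genes were higher and 66 lower, of which 1 of the 5 (Sepp1) and 39 of the 52 were still called. Rac2, the 6th by ratio, was below the call at 0.99. The 6 lowest ratios were those of Hist1h1b, Prc1, Trp53bp1, a DNA damage response protein, Sp3, a transcription factor, Cenpf, a kinetochore protein (133 against 353), and Ska1.

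Of the lists compared with S4-like cells, 6 held a called gene. In G2 and mitosis 4 of 19 genes fell (Mki67, Cenpe, Cenpf and Kif11) with a median of -0.72, against 1.72% of all genes lower, and in heme synthesis Cpox, in heme transport Slc25a38 and in the membrane skeleton Sptb fell. Of 6 clustered histones Hist1h1b fell, and of 7 granulocyte and monocyte genes Mpo rose. The log2 ratio of Mki67 was 0.34 among cells below 5 Malat1 UMIs, from 27 and 25 UMIs. The 3 markers were not called, with log2 ratios of 0.95 for Bpgm, 0.85 for Mkrn1 and 0.57 for Alas2. The 17 ubiquitin genes and the 18 DNA replication genes had no call either, with medians of 0.08 and -0.21.

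The S5-like cells were not alike among themselves in Malat1. Malat1 is a long noncoding RNA that is kept in the nucleus. Its level was 7766 in S3, 11606 in S4-like and 9436 in S5-like cells, and the mean per cell 28.4, 21.2 and 11.4 UMIs. Of the S5-like cells, 136 had 0 Malat1 UMIs, 39 had 1, 10 had 2, 16 had 3 to 9 and 109 had 10 or more, up to 104. Below 5 UMIs lay 194 of 310 S5-like cells (62.6%, exact 95% interval 56.9% to 68.0%), against 34.3% of S4-like, 7.54% of S3 and 5.09% of S2 cells. S1 had 9.08%, and of the 56 Ter119-high cells with more Hbb-y than adult beta-globin none lay below 5. The S5-like cells below 5 had medians of 4164 UMIs and 993.5 non-globin UMIs, and the others 3417 and 1175. After thinning each cell to 2000 UMIs, 51.3% of S5-like cells had no Malat1 UMI, against 28.7% of S4-like and 6.4% of S3 cells.

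The 194 S5-like cells below 5 Malat1 UMIs and the 116 others differed in measures that the split did not use, in cells of 1 library and with no test. The median globin share was 76.9% below and 64.9% above, CD44 28 and 46.5 counts, CD71 93 and 110 counts, and Ter119 173.5 and 148 counts. Over the 310 cells, Malat1 UMIs and globin share had a Spearman correlation of -0.74 and a Pearson correlation of -0.52, and Malat1 and CD44 counts 0.46 and 0.18. These points share 1 library, and a cell's Malat1 count and globin share come from the same UMIs.

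Of 1083 genes compared between them, 22 (2.03%) were higher and 114 (10.5%) lower in the Malat1-low cells, with a median log2 ratio of 0.14. Apart from Malat1 itself, the lower genes held Slc2a1, the glucose transporter (360 against 2650), Xpo7 (520 against 2568), the F-box gene Fbxo30 (117 against 782), Pim1, a kinase gene induced by erythropoietin (481 against 2239), and the early response genes Ppp1r15a (510 against 1892) and Btg2 (92.4 against 546). Herc1, Cenpf, Runx1t1, Mafg, Clcn3, Ankrd9, Akap13 and Sowaha were, with Malat1, Slc2a1 and Fbxo30, among the 12 with the lowest ratios. Cpox (447 against 1146), Ppox and Slc25a37 (1390 against 3208) were also lower, and 3 of 7 heme synthesis genes and 2 of 3 heme transport genes fell in all. So did 6 of 11 membrane protein genes, among them Ermap, Cd47, Rhag and Rhd, and 4 of 8 of the membrane skeleton, 5 of 10 transcription factors, among them Nfe2 and Tal1, and Tfrc (117 against 288). Xist, the nuclear RNA of X inactivation, was at 92.4 against 323, and Neat1, another nuclear RNA, had 0 UMIs in the Malat1-low and 30 in the other cells. Kcnq1ot1, a nuclear RNA of the same list, was at 38.9 and 35.3, from 8 and 6 UMIs.

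Other erythroid RNAs were as high or higher in the Malat1-low cells. Bpgm was at 6173 against 2920 (ratio 2.11 [1.90 to 2.35]) and was the one glycolysis gene called higher. Without the cells under 40% globin it was at 6450 and 3299, a log2 ratio of 0.97, and not called. Mkrn1 was at 9707 against 5400 and Alas2 at 9313 against 6182, both below the call. Ftl1 was at 36879 and 21413 and Fth1 at 24392 and 16265. The 74 ribosomal protein genes had a median of 0.29 with Rps28 higher, and the 62 genes of oxidative phosphorylation 0.39 with 1 higher. When cells under 40% globin were left out, these medians were 0.60 with 3 of 72 higher and 0.43 with 3 of 59 higher. The 12 highest ratios were those of Gstm5, S100a8, Rps28, Pf4, Pla2g12a, Cox6b2, Higd2a, Chmp4b, Polr2g, Csmd2, Cd81 and H19. S100a8 and Pf4 mark granulocytes and platelets, and the hepatocyte list gave 4.16 UMIs per Malat1-low and 3.26 per other S5-like cell, whose part in the result was not tested. Most of the 12 rested on 39 to 62 UMIs, and Csmd2 on 237 (1152 against 470). Without the cells under 40% globin (192 and 114 cells left), 51 of 984 genes were higher and 132 lower, and 17 and 109 of the calls were shared with those above.

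**Figure D5:**
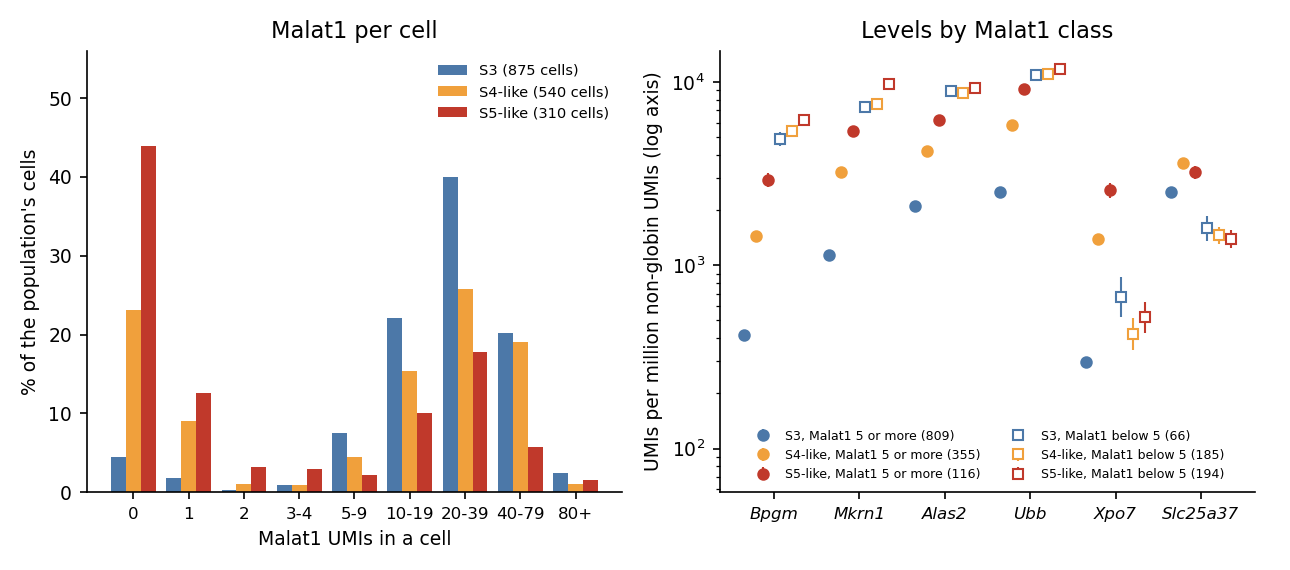
Left, share of the cells of S3, S4-like and S5-like by the number of Malat1 UMIs in a cell; 43.9% of S5-like cells have 0. Right, levels per 1000000 non-globin UMIs (log axis) of 6 genes in cells with 5 or more (circles) and below 5 Malat1 UMIs (open squares), with exact 95% Poisson intervals and numbers of cells; the open squares of Bpgm are at 4870, 5411 and 6173 and those of Xpo7 at 674, 423 and 520, and the circles of Bpgm, Mkrn1, Alas2, Ubb and Xpo7 climb from S3 to S5-like.

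The comparison with S3 was then repeated within each Malat1 class. Among cells below 5 Malat1 UMIs (66 S3 and 194 S5-like cells), 881 genes had enough UMIs, and 8 (0.908%) were higher and 4 (0.454%) lower, with a median log2 ratio of 0.02. Over all cells, 89 of these same 881 genes were higher and 33 lower. The 8 were Tmem167, D5Ertd579e, Rpl6l, Psmb4, Rhoa, Anp32e, Eif3g and Ndufs5. Their levels in the Malat1-low S3 cells were low, from 81.7 to 184. Over all cells 0 of the 8 were called, and the log2 ratios of Tmem167 (-0.11), Rpl6l (-0.79), Anp32e (-0.020) and Eif3g (-0.33) were negative. The 4 lower genes were 2810417H13Rik, Mthfd2, Gmpr and Hemgn. Without cells of either population under 40% globin, 8 of 829 genes (0.965%) were higher and 0 lower. Bpgm stood at 4870 [4443 to 5328] in Malat1-low S3, 5411 in S4-like and 6173 [5838 to 6522] in S5-like cells, and Alas2 at 8924, 8650 and 9313. Mkrn1 stood at 7341, 7555 and 9707. The globin share of these cells had medians of 72.8% in S3, 74.5% in S4-like and 76.9% in S5-like cells. None of 13 ubiquitin genes and none of 6 mitophagy genes passed the call, with medians of 0.04 and 0.16. Nor did any of 8 genes of G2 and mitosis (median -0.032) or of 4 DNA replication genes (median -0.50).

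Among cells with 5 or more Malat1 UMIs (809 S3 and 116 S5-like cells), 271 of 5192 genes (5.22%) were higher and 687 (13.2%) lower in S5-like cells, with a median log2 ratio of -0.31. Over all cells, 155 of these genes were higher and 471 lower. Bpgm stood at 415 in S3, 1439 in S4-like and 2920 in S5-like cells, Mkrn1 at 1130, 3226 and 5400, Alas2 at 2104, 4224 and 6182, and Ubb at 2510, 5822 and 9185. Xpo7 had the highest log2 ratio of the 5192 genes with 10 added to both levels, 3.07, with levels of 298, 1392 and 2568. In this class 11 of 17 ubiquitin genes and 7 of 14 mitophagy genes rose, and 9 of 19 DNA replication and 5 of 21 mitotic genes fell. Without the 2 S5-like cells of this class under 40% globin, and with all S3 cells kept, 299 of 5171 genes (5.78%) were higher and 1091 (21.1%) lower. In S3, 373 of the 809 cells were under that limit. The share of Malat1-low cells and the levels among cells with 5 or more Malat1 UMIs both differed between S3 and S5-like cells, whereas few genes passed the call among cells below 5, and how much each adds to the 167 and 473 calls was not tested. Against S4-like cells, 2 of 1236 genes (0.162%) were higher and 4 (0.324%) lower among cells below 5 Malat1 UMIs, and 10 of 2360 (0.424%) higher and 81 (3.43%) lower among the others. Below 5 Malat1 UMIs and without cells of either population under 40% globin these were 2 (0.172%) and 5 (0.431%) of 1160 genes. With 5 or more, and without such S5-like cells only, they were 19 (0.829%) and 161 (7.03%) of 2291.

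The amount of CD71 itself also went with RNA content inside the gate. The 58 cells with fewer than 50 CD71 counts had medians of 77.9% globin and 870.5 non-globin UMIs, the 99 cells with 50 to 99 counts 73.1% and 1071, and the 153 cells with 100 or more counts 70.8% and 1190. Total UMIs rose as well, with medians of 3529.5, 3775 and 4044. The gate used CD71, so these values are a description. The levels of Bpgm were 6231 [5563 to 6957], 4723 and 4306, and those of Mkrn1 10293, 7754 and 7127, in the same order. Xpo7 went the other way, with 927, 1396 and 1607, as did Mki67 with 98.6 [32.0 to 230], 172 [107 to 264] and 305 [234 to 391]. The first of these Mki67 levels rested on 5 UMIs. The 4 cells under 40% globin had 58 to 143 CD71 counts, so none lay in the lowest group. Their part in these levels was not tested. Malat1 moved with these groups too, with levels of 5462, 9536 and 10366.5, and its part in the other differences was not tested. Over the 310 cells, CD71 counts and non-globin UMIs had a Spearman correlation of 0.40 and a Pearson correlation of 0.15. Bpgm and Mkrn1 UMIs of single cells, both sparse, had a Spearman correlation of 0.30.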

How the data were processed

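The authors deposited UMI counts per gene and cell and counts of 10 antibody tags per cell, from 1 cDNA and 1 antibody library of the same cells. The submitters' processing notes name Cell Ranger, Seurat and the mm10 build, and the cells were run on the 10x Genomics 3′ chemistry. The count matrices were used as deposited, with 58606632 UMIs over 27998 genes, of which 1256526 (375903 not globin) lay in S5-like cells. No column of samples outside the series was present (0). The gate was applied as stated, and doublets were kept. Scrublet (6% expected rate, through scanpy) called 128 of 7863 cells (1.63%), of which 1 was S5-like and 37 were S3. UMIs were summed over the cells of a population and divided by the sum over all genes except 10 globin genes. Genes with at least 50 UMIs in the 2 populations together were compared, with a pseudocount of 10 and a 2-fold call. Intervals are exact, Poisson for levels, the exact conditional one for ratios and Clopper-Pearson for shares, at 95%. The text names the 3 markers, members of 38 gene lists, the 12 top and 12 bottom genes by ratio against S3, and the 6 top and 6 bottom against S4-like cells. The members and lists were chosen with earlier results of these data known. The Malat1 limit of 5, the limit of 40% globin and the alternatives built on them were chosen after seeing the data, and genes named from those comparisons were chosen after their values were seen. The scripts were tested on simulated data. Some genes that the rule selects are not reported here. Promoters came from RefSeq, matched by symbol. The tools were scanpy 1.11.5, matplotlib 3.10.9, pandas 2.3.3, scipy 1.17.1 and numpy 2.4.6, under Python 3.11.15.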

Additional observations from a re-analysis of the deposited data

How the results depend on the processing

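Of 3338 named gene values recomputed under the alternatives, 2086 moved by less than their counting interval, 1209 moved more and 43 changed sign. Against S3, the numbers of genes higher and lower, 167 and 473, became 6 and 2239 per 1000000 of all UMIs, 1 and 3887 per cell, 354 and 3363 with free RNA subtracted, 110 and 243 of 2463 genes (4.47% and 9.87%) with at least 200 UMIs a gene, 8 and 4 of 881 genes below 5 Malat1 UMIs, and 299 and 1091 with 5 or more without cells under 40% globin. The lower count became 858 with a pseudocount of 1 and 771 with CD71 below 100, and the higher count 271 with 5 or more Malat1 UMIs. Below 5 Malat1 UMIs and without cells under 40% globin it was 8 higher and 0 lower. Cells under 40% globin were left out of both populations below 5 Malat1 UMIs, and of S5-like cells only elsewhere. Against S4-like cells, 5 higher and 52 lower became 0 and 125 per 1000000 of all UMIs, 0 and 426 per cell, 50 and 1534 with free RNA subtracted, 11 and 97 with a pseudocount of 1, 64 and 187 with no filter on low counts, 0 and 9 of 1045 genes with at least 200 UMIs and 15 and 173 with CD71 below 100. They became 2 and 4 below 5 Malat1 UMIs, 10 and 81 with 5 or more, 19 and 161 with 5 or more without cells under 40% globin, and 2 and 5 below 5 without such cells. The higher count alone became 9 as a mean over cells, 3 without cells rich in genes of other cell types and 3 without cells under 40% globin. The gate held 184 cells with Ter119 at 150 or more. The causes were not tested.

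The log2 ratios that changed sign against S3 per cell were those of Fbxo30 (-0.23), Gpx1 (-0.36), Map1lc3b (-0.076), Mpp1 (-0.073), Rnf10 (-0.37) and Ube2l6 (-0.29). Those that did so below 5 Malat1 UMIs, with the value without cells under 40% globin second where it also changed sign, were Bcl2l1 (-0.21 and -0.26), Cdc42ep3 (0.27 and 0.33), Epor (0.039 and 0.71), Fbxo30 (-0.27 and -0.23), Gpx1 (-0.025 and -0.042), Hist1h2ap (0.57), Mpp1 (-0.16 and -0.18), Pabpc1 (-0.034 and -0.078), Pepd (-0.087 and -0.15), Rnf10 (-0.062 and -0.039), Tcp11l2 (-0.50 and -0.55), Tmcc2 (-0.21 and -0.27), Top2a (0.84 and 1.43), Ube2l6 (-0.073 and -0.051), Uros (0.16 and 0.71) and Xpo7 (-0.37 and -0.42). In the second of these, Prc1 (0.22) and Tmem14c (0.16) changed sign as well. Against S4-like cells, Mki67 turned to 0.34 and 0.25 in the same pair, and Arhgdib (-0.026) and H2afy (-0.046) turned with 5 or more Malat1 UMIs and without cells under 40% globin. Below 5 Malat1 UMIs, the values of Cdc42ep3, Epor, Fbxo30, Hist1h2ap, Prc1, Top2a and Uros rested on 1 to 38 UMIs in both populations together, under the minimum of 50, so their sign cannot be read. No paired analysis was possible because there is 1 library and no test.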

Other observations

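Most Hbb-bh1 UMIs of the S5-like cells lay in few cells. Hbb-bh1, an embryonic beta-like globin that is active in the yolk sac and in the first fetal liver cells, was over 10 UMIs in 12 of 310 S5-like cells (3.87%, exact 95% interval 2.02% to 6.66%), up to 292 UMIs, and these 12 held 68.9% of the population's Hbb-bh1 UMIs. Hbb-y, another embryonic globin gene, had at most 5 UMIs in them and a median of 2 UMIs over all S5-like cells. The same limit was passed by 63 of 1317 S2, 76 of 875 S3 and 40 of 540 S4-like cells, and by 41 of the 56 Ter119-high cells with more Hbb-y than adult beta-globin. These cells held 72.2% of the Hbb-bh1 UMIs in S2, 81.5% in S3 and 89.2% in S4-like cells, so the S5-like cells did not stand out in this. S2 cells were not cut on Hbb-y, and those over the Hbb-bh1 limit had up to 4869 Hbb-y UMIs.

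A further 8 cells met the antibody limits with 248 to 292 genes, under the limit of 300. They had a median of 2658 UMIs, 83.6% globin and 56 CD71 counts, and all 8 had fewer than 5 Malat1 UMIs.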
